A study of Mus musculus with 16 samples.

Results

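The 9 transcription factors described here, which pattern the kidney and the male reproductive duct, are Hnf4a, Pax2, Pax8, Hoxa9, Hoxa10, Hoxa11, Hoxd9, Lhx1 and Emx2, and their levels were compared in mouse efferent duct and caput epididymis. The members were all probe sets of the array that the annotation gives exactly 1 gene symbol, where that symbol is on the list. This gave 15 probe sets of 8 genes among 45037 non-control probe sets, which in all cover 18193 genes. Pax2 had no such probe set and was not analysed here.

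The efferent ducts carry sperm and fluid from the testis to the head of the epididymis, the caput, and reabsorb most of that fluid. They arise from mesonephric tubules, while the epididymis arises from the Wolffian (mesonephric) duct, and both structures form with the transcription factors that build the kidney. HNF4A is a nuclear receptor that drives epithelial genes of liver, gut and the proximal tubule of the kidney. PAX2 and PAX8 (paired-box factors), LHX1 (a LIM-homeodomain factor) and EMX2 (a homeodomain factor) are needed for the nephric duct and its derivatives. HOXA9, HOXA10, HOXA11 and HOXD9 are homeodomain factors of the posterior Hox genes, whose expression differs along the length of the Wolffian duct and helps to set segment identity.

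RNA came from adult male 129BL/6 mice that had been castrated or sham-operated and given 14 days to recover. In each tissue, 4 groups of 2 arrays were compared. Castrated mice received 0.015 mg testosterone propionate (TP, an androgen ester), 0.015 mg estradiol (E2), or vehicle (100 µL of 10% ethanol in sesame oil), and sham-operated mice received vehicle. Tissue was taken 12 hours later, so that TP and E2 denote castrated mice with hormone, and castrated and sham denote mice with vehicle. The labels do not say that the 2 arrays of a group came from separate animals, and p-values therefore measure only the spread between these samples, which may be technical. Efferent duct RNA (50 ng) was amplified and labelled with the Ovation kit and caput RNA (10 µg) with the One-Cycle kit, so tissue and labelling method cannot be told apart in any comparison between the tissues. These are whole tissues, in which more cells of a type and more RNA per cell cannot be told apart.

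All values are microarray intensities on a linear scale, with every array scaled by the submitters to the same trimmed mean. An array's background was taken as the highest of 27 Bacillus control probe sets, and the share of probe sets above it ranged from 62.2% to 87.6% by array in the efferent duct and from 69.1% to 76.3% in the caput. The efferent duct arrays fell into 2 sets. On the hormone arrays (TP and E2) background was 2.33 to 3.97 and the brightest non-control probe set reached 2930.2 to 4087, against a background of 8.09 to 14.3 and a brightest probe set of 9370 to 10991 on the vehicle arrays (castrated and sham). The log2 ratio of the 3' to the 5' actin control probe sets was 0.91 to 1.93 on the hormone arrays and 3.11 to 3.87 on the vehicle arrays. Hormone treatment and array set therefore cannot be told apart where TP or E2 is set against castrated vehicle in the efferent duct, while TP against E2 and castrated against sham each stay within 1 set. The actin ratio was 0.88 to 1.20 on the caput hormone arrays and 0.64 to 1.02 on the caput vehicle arrays. In castrated and sham mice the tissue differences therefore cross a gap in this ratio too. The caput hormone arrays had a background of 8.48 to 12.2 and a brightest probe set of 8603 to 12111. In TP and E2 mice the tissue differences therefore cross a gap in background and brightest level. Where a tissue difference changed between vehicle and hormone treatment, treatment and array set cannot be told apart. Tissue markers followed the labels in sham mice: the caput principal cell markers summed to 5525 and 9202 in the efferent duct and to 65504 and 65481 in the caput. Sham efferent duct array 2 held the caput lipocalins Lcn8 and Lcn9 at 1126 and 797, against 15.5 and 9.21 on sham efferent duct array 1. On both sham efferent duct arrays the summed caput principal cell markers were above the 159 and 59.5 of castrated efferent ducts. The efferent duct absorptive cell markers summed to 2232 and 2070.4 in sham efferent duct and to 509 and 572 in sham caput, but 2 of those 5 markers, Cubn and Amn, were above background on 7 and 9 of the 16 arrays. Markers of other cells differed too. Adipocyte markers (4 of 4 measured higher) summed to 5374 to 6369 in sham efferent duct and 509 to 764 in sham caput, and ciliated cell markers (5 of 6 higher) to 3306 to 3429 and 386 to 452. The Leydig and Sertoli cell markers (1 of 3 measured higher) summed to 3026 to 3457 and 295 to 305. Nearly all of that sum was Sox9, while Amh was above background on 1 of 16 arrays. Their part in the tissue differences of the factors was not tested.

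Promoter sequences are shown for 3 genes whose levels separated the tissues or turned with treatment, to give the DNA just before their transcription starts. Each is the 250 bases before a start in RefSeq (build GRCm38.p6), written 5′ to 3′ on the gene's strand. Capitals mark CCAAT boxes (CCAAT or its complement ATTGG). RefSeq gives Hnf4a 2 windows, an upstream start on chromosome 2, plus strand (chr2:163506607-163506856) and a downstream start (chr2:163546905-163547154). Lhx1 lies on the minus strand of chromosome 11 (chr11:84525535-84525784) and Emx2 on the plus strand of chromosome 19 (chr19:59458440-59458689).
Hnf4a upstream: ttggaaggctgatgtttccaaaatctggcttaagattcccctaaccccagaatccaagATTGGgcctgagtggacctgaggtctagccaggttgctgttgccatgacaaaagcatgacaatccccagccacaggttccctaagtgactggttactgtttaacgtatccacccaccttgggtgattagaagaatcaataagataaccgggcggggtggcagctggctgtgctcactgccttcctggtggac
Hnf4a downstream: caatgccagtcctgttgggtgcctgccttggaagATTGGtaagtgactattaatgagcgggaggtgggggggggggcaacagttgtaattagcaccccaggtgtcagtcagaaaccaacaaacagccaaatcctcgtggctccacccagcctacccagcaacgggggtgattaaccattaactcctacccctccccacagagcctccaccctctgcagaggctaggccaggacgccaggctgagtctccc
Lhx1: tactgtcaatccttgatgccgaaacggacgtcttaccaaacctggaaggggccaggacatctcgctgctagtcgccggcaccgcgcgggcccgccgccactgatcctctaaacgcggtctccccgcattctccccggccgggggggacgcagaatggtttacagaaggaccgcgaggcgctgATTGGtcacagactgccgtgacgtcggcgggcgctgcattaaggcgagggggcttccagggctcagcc
Emx2: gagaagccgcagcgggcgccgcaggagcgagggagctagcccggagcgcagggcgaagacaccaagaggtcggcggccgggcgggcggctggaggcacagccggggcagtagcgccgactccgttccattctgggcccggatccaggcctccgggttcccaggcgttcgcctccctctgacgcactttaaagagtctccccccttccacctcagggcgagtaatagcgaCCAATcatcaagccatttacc
All 9 genes matched, with 13 windows. CCAAT, searched on both strands, was found in 6 of the 13 windows and in 33.8% of 32851 windows of the same length. The palindromic estrogen response element (GGTCA and TGACC, 3 bases apart) and the palindromic androgen response element (AGAACA and TGTTCT, 3 bases apart) were in none of the 13 windows, and in 0.0639% and 0.00913% of all windows.

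Hnf4a separated the tissues on every array. Its brightest probe set (1427001_s_at) had intensities of 1032 and 1673 in TP efferent ducts, 427 and 588 in E2 efferent ducts, 2221 and 2876 in castrated efferent ducts and 3142 and 3153 in sham efferent ducts. In the caput it had 64.1 and 142 in TP mice, 50.6 and 60.8 in E2 mice, 46.0 and 37.3 in castrated mice and 43.3 and 45.6 in sham mice. Every efferent duct array was above every caput array, and all 16 were above background. In sham mice the efferent duct level was 70.8-fold the caput level, a log2 difference of 6.14 ± 0.37 (SE, limma, adjusted p = 2.9e-06). The tissue difference was 3.78 in TP mice, 3.18 in E2 mice and 5.93 in castrated mice on the log2 scale, and each passed. The smaller differences in TP and E2 mice fall on the hormone array set of the efferent duct, which cannot be told apart from treatment. The order of the groups was sham, castrated, TP and E2 efferent duct, then TP, E2, sham and castrated caput, and among these 7 neighbouring pairs the arrays overlapped only between sham and castrated caput.

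**Figure D1:**
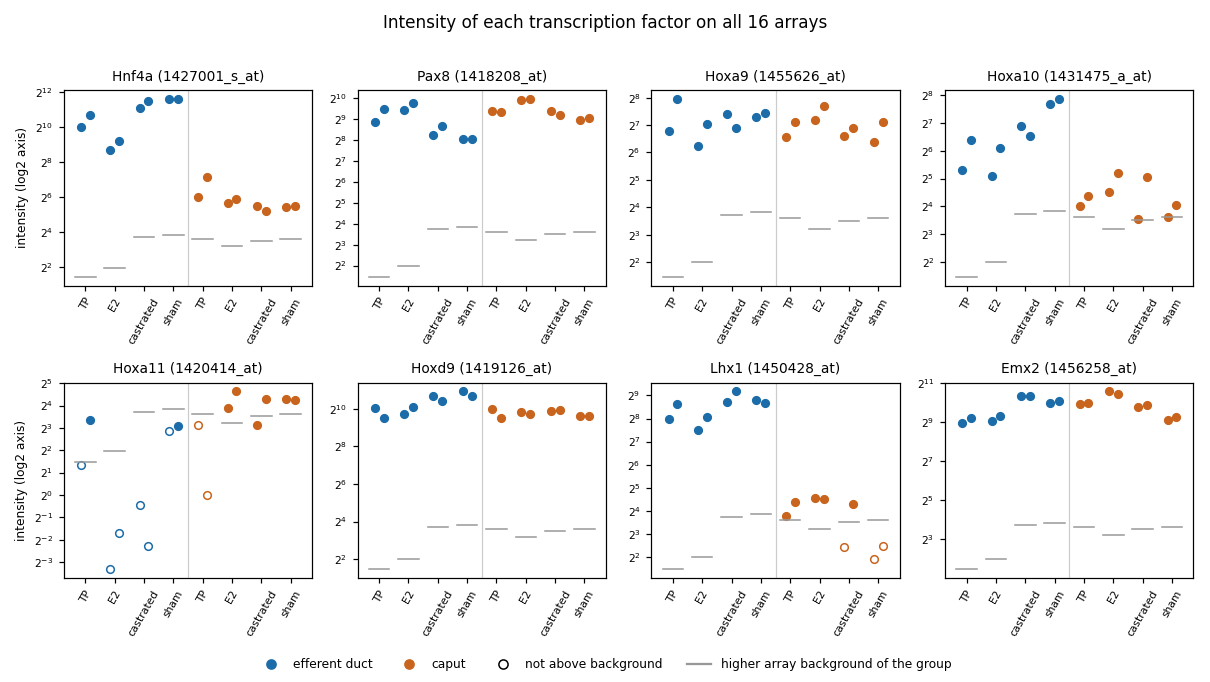
Intensity of the brightest probe set of each gene on all 16 arrays, on a log2 axis, by group, with the efferent duct (blue) left of the caput (orange). Each point is 1 array, open where it was not above that array's own background, and the grey line is the higher background of the group's 2 arrays. Hnf4a and Lhx1 separate the tissues on every array, while Hoxa9 differs little between groups next to each other in level and Hoxa11 lies near background.

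Lhx1, which acts with PAX factors in the nephric duct, showed the same separation. Its brightest probe set (1450428_at) had 250.3 and 402 in TP, 184 and 265 in E2, 426 and 579 in castrated and 441 and 403 in sham efferent ducts. In the caput it had 13.7 and 20.6 in TP, 23.7 and 22.7 in E2, 5.32 and 19.7 in castrated and 3.74 and 5.58 in sham mice. All 8 efferent duct arrays were above background, and 5 of the 8 caput arrays were, with none in sham mice. In sham mice Lhx1 was at least 36.8-fold higher in the efferent duct than in the caput, the bound being taken against the lowest level above background (adjusted p = 1.18e-05). The log2 tissue difference was 4.24 in TP, 3.25 in E2 and 5.60 in castrated mice, and each passed. The castrated value includes caput castrated array 1, which was below its background of 7.82. As for Hnf4a, the smaller differences in TP and E2 mice fall on the hormone array set of the efferent duct. The dimmer Lhx1 probe set (1421951_at), at most 47.2 on any array, was also higher in the efferent duct in sham mice, at least 2.71-fold (adjusted p = 0.00400), and correlated with the bright one over the 16 arrays (r = 0.75, arrays of both tissues).

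Among the posterior Hox genes, Hoxa10 was higher in the efferent duct. Hoxa10 (1431475_a_at) had 39.3 and 83.8 in TP, 33.8 and 69.0 in E2, 119.7 and 93.4 in castrated and 205 and 233 in sham efferent ducts, against 16 and 20.5 in TP, 22.6 and 36.6 in E2, 11.7 and 33.4 in castrated and 12.2 and 16.5 in sham caput. The tissues did not overlap in TP, castrated and sham mice and overlapped in E2 mice. The sham difference was 15.4-fold (log2 3.94 ± 0.55 SE, adjusted p = 2.81e-04). In E2 mice the log2 difference was 0.75, with a 95% interval from -0.50 to 1.99 (adjusted p = 0.321). The Hoxa10 difference in TP mice, log2 1.66 (adjusted p = 0.0388), did not pass without caput TP array 1 (adjusted p = 0.154), caput TP array 2 (0.0872) or efferent duct TP array 2 (0.223). The other Hoxa10 probe set (1446408_at) stayed between 0.816 and 27.2, was above background on 4 of 8 efferent duct and 3 of 8 caput arrays, and passed in no comparison.

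Hoxd9 (1419126_at) was bright in both tissues. It had 1060.1 and 739 in TP, 854 and 1109.5 in E2, 1673 and 1390.2 in castrated and 1953 and 1636 in sham efferent ducts, against 1009.8 and 724 in TP, 905 and 856 in E2, 953 and 994 in castrated and 786 and 775 in sham caput. All 16 arrays were above background, and the vehicle-treated efferent ducts stood above all other groups. The sham difference was 2.29-fold (log2 1.20 ± 0.24 SE, adjusted p = 0.00264). In castrated mice the log2 difference was 0.65 (limma, adjusted p = 0.0509), with no overlap. Whether it passed depended on the setting: it did without the dimmest 40% of probe sets (adjusted p = 0.0238) and with the brightest per gene (0.0360), but not in the main fit. In TP and E2 mice, on the hormone array set of the efferent duct, the tissues overlapped (0.05 and 0.15).

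The brightest Hoxa9 probe set passed in no comparison, while a dimmer one was lower in the efferent duct. The brightest probe set (1455626_at) had 109 and 247 in TP, 74.4 and 132 in E2, 168 and 118 in castrated and 156 and 171 in sham efferent ducts, against 93.5 and 137 in TP, 145 and 206 in E2, 96.9 and 118 in castrated and 82.7 and 139 in sham caput. All 7 pairs of groups next to each other in level overlapped. The sham tissue difference was 0.61 on the log2 scale, with a 95% interval from -0.40 to 1.62 (adjusted p = 0.299). The dimmer Hoxa9 probe set (1421579_at) lay between 4.60 and 15.6 in the efferent duct, above background on 4 of 8 arrays, and between 20.0 and 66.2 in the caput, above background on 8 of 8. It was lower in the efferent duct over the mean of the 4 treatments (log2 -1.81, adjusted p = 2.99e-04), which passed in all 20 other settings run. It was at least 2.86-fold lower in castrated mice (adjusted p = 0.00261) and lower by a log2 difference of -2.03 in E2 mice (adjusted p = 0.0199), and neither passed with values under 16 set to 16 (adjusted p = 0.122 and 0.0749). That floor raised every efferent duct value of this probe set to 16, which shrinks both differences. The levels of the Hoxa9 probe sets were hardly correlated over the 16 arrays (r = 0.06).

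Hoxa11, known in the mouse for its role in the vas deferens, was near background. Its 1 probe set (1420414_at) had 2.56 and 10.3 in TP, 0.100 and 0.312 in E2, 0.728 and 0.202 in castrated and 7.20 and 8.48 in sham efferent ducts. In the caput it had 8.63 and 0.987 in TP, 14.7 and 24.8 in E2, 8.71 and 19.5 in castrated and 19.7 and 18.8 in sham mice. It was above background on 2 of 8 efferent duct arrays and on 6 of 8 caput arrays. With values this low only bounds can be given: Hoxa11 was at least 5.41-fold lower in the efferent duct than in the caput in E2 mice (adjusted p = 0.00118) and at least 1.13-fold lower in castrated mice (adjusted p = 0.00333). With all values under 16 set to 16, neither difference passed (adjusted p = 0.192 in E2 and 0.623 in castrated mice). That floor cannot decide, because all efferent duct values, caput E2 array 1 and caput castrated array 1 lay under it and little difference was left.

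Pax8 was lower in the efferent duct than in the caput in vehicle-treated mice. Pax8 (1418208_at) had 469 and 704 in TP, 689.7 and 862 in E2, 302 and 402 in castrated and 268 and 262 in sham efferent ducts, against 671 and 645 in TP, 968 and 989.5 in E2, 672 and 584 in castrated and 488 and 529.9 in sham caput. E2 caput was above all other groups and sham efferent duct below all others. The sham tissue difference was 1.92-fold lower in the efferent duct (log2 -0.94 ± 0.23 SE, adjusted p = 0.00741) and the castrated difference 1.80-fold lower (log2 -0.85, adjusted p = 0.0123). The castrated difference did not pass without efferent duct castrated array 1 (adjusted p = 0.0822) or caput castrated array 1 (0.0763). In TP and E2 mice the log2 differences were -0.19 and -0.34 and did not pass (adjusted p = 0.534 and 0.269). The other Pax8 probe set (1446561_at) stayed between 8.70 and 30.9 on all arrays and passed in no tissue comparison.

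Among the brightest probe sets, Emx2 was the one whose tissue difference passed in both directions. Emx2 (1456258_at) had 489 and 597 in TP, 531 and 634 in E2, 1268 and 1287 in castrated and 995 and 1066 in sham efferent ducts. In the caput it had 969 and 1010.2 in TP, 1510.1 and 1398 in E2, 859 and 931 in castrated and 543 and 605 in sham mice. The efferent duct was above the caput in sham and castrated mice and below it in TP and E2 mice, with no overlap within a treatment. The log2 tissue difference was -0.87 in TP mice (adjusted p = 0.00302) and -1.32 in E2 mice (adjusted p = 3.53e-04), against 0.51 in castrated mice (adjusted p = 0.0297) and 0.85 in sham mice (adjusted p = 0.00238), each with an SE of 0.17. This turn falls between the vehicle and the hormone arrays of the efferent duct, which cannot be told apart from treatment. The castrated difference was 0.17 after quantile normalization (adjusted p = 0.458) and did not pass without any 1 of its 4 arrays (adjusted p = 0.0685 to 0.137).

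**Figure D2:**
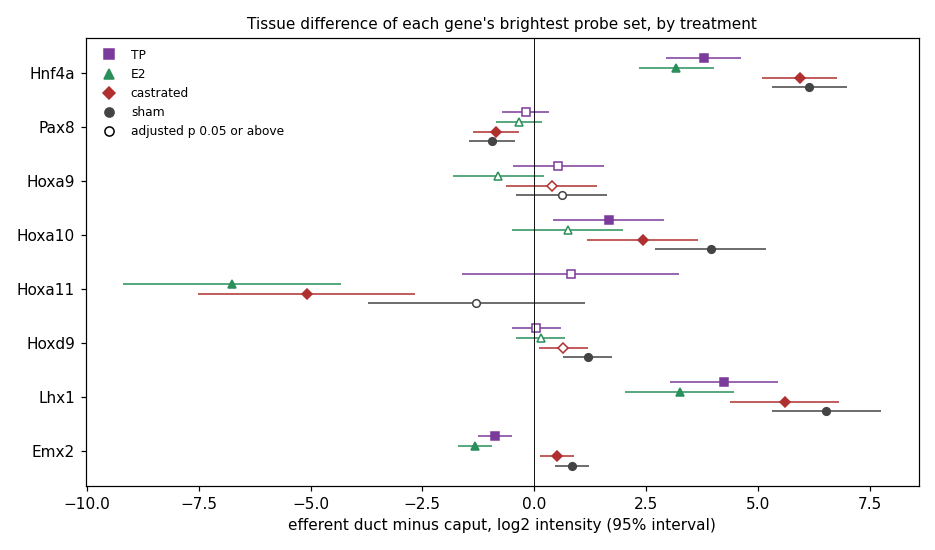
Efferent duct minus caput difference in log2 intensity for the brightest probe set of each gene, in TP, E2, castrated and sham mice. Bars are 95% intervals from limma and open markers did not pass the adjusted p threshold of 0.05. Hnf4a and Lhx1 lie right of 0 in all 4 treatments, and Emx2 lies left of 0 with hormone and right of 0 with vehicle. The Hoxa11 values and the sham and castrated Lhx1 values include arrays not above background. Only a bound is known where both arrays of a group were below it.

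Counted together, 7 of the 15 probe sets were higher and 1 lower in sham efferent duct than in sham caput, where 47.8% of all probe sets were called (19.0% higher and 28.8% lower). The called count was 6 in TP (background 39.4%), 7 in E2 (37.4%) and 8 in castrated mice (48.4%). Against the mean of all 4 treatments 10 of 15 were called, where 66.5% of all probe sets were. The number called was near the share of all probe sets called. The count in sham mice was 8 with any 1 of its 4 arrays left out, the efferent duct array with the caput lipocalins included.

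The 4 probe sets of Hnf4a disagreed about the hormones. The second, 1427000_at, had 200.5 and 289 in TP, 61.3 and 67.0 in E2, 58.7 and 103 in castrated and 112 and 141 in sham efferent ducts, with 19.8 and 41.1 in TP, 11.7 and 13.7 in E2, 7.36 and 13.6 in castrated and 17.1 and 5.89 in sham caput. It followed the brightest probe set between tissues (sham log2 difference 3.64, adjusted p = 4.31e-04) and over the 16 arrays (r = 0.90), but its highest group was TP efferent duct and not sham. Sham caput array 2, at 5.89, was below its background of 12.3, and the sham difference was 2.87 to 4.41 in the other settings. The third, 1421983_s_at, had 75.8 and 70.2 in TP, 17.7 and 28.1 in E2, 2.05 and 14.1 in castrated and 18.2 and 11.7 in sham efferent ducts and lay between 15.4 and 33.4 in the caput. It showed no tissue difference that passed, and its correlation with the brightest over the 16 arrays was -0.14. The fourth, 1450447_at, stayed under 30 everywhere and was above background on 2 of 8 efferent duct and 6 of 8 caput arrays, and in E2 mice it was at least 5.91-fold lower in the efferent duct than in the caput (adjusted p = 0.0100). Which Hnf4a transcripts each probe set reads was not tested.

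**Figure D3:**
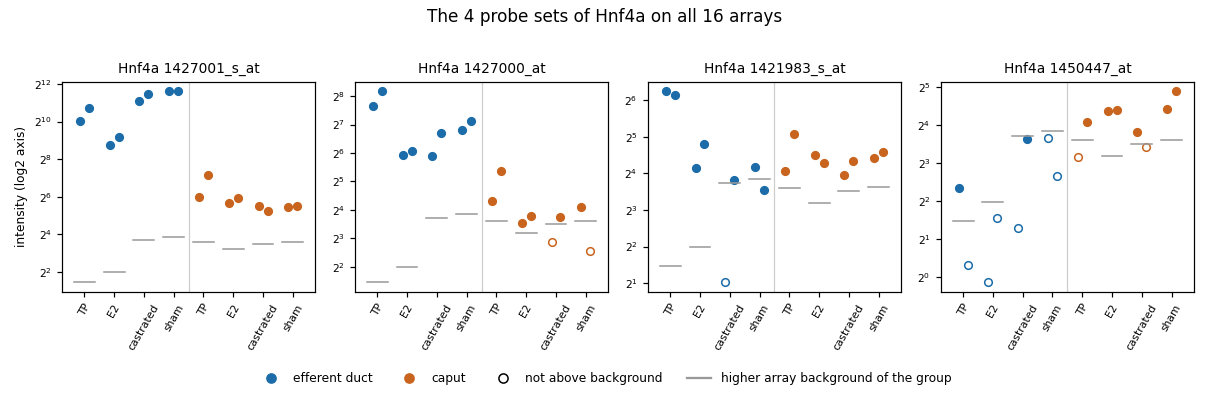
Intensity of the 4 Hnf4a probe sets on all 16 arrays, on log2 axes, by group, with the efferent duct (blue) left of the caput (orange). Open points were not above their array's own background and the grey line is the higher background of the group's 2 arrays. The first and second separate the tissues, and the second (1427000_at) and 1421983_s_at have their highest arrays in TP efferent ducts.

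None of the factors changed past the threshold after castration in either tissue. In the efferent duct 0 of 15 probe sets passed limma's test between castrated and sham mice (1 at an unadjusted p under 0.05), where 0.0955% of all probe sets were called. Hnf4a differed by -0.32 on the log2 scale, with a 95% interval from -1.15 to 0.52, and Lhx1 by 0.23, from -0.64 to 1.11. Hoxa10 differed most among the genes above background on all arrays, with 119.7 and 93.4 in castrated and 205 and 233 in sham efferent ducts, a log2 difference of -1.05 with an interval from -2.30 to 0.21 (adjusted p = 0.443). The groups did not overlap for Hoxa10 and overlapped for Lhx1. Summed caput principal cell markers were 159 and 59.5 in castrated and 5525 and 9202 in sham efferent ducts. Their part in these differences was not tested.

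In the caput 0 of 15 passed between castrated and sham mice (2 at an unadjusted p under 0.05), where 5.83% of all probe sets were called. Emx2 came nearest, with 859 and 931 in castrated caput and 543 and 605 in sham caput, a log2 difference of 0.64 ± 0.15 (SE, adjusted p = 0.0695). The groups did not overlap. Emx2 passed under 4 of the other settings, with the dimmest 40% of probe sets left out (adjusted p = 0.0155), with low values floored (0.0178), with an intensity trend in the variance (0.00218) and with 1 probe set per gene (0.0319). The caput principal cell markers, many of which need androgen, summed to 6042 and 5833 in castrated caput and to 65504 and 65481 in sham caput, with 8 of 9 lower and 1 not passing. Clear and narrow cell markers (4 of 5 higher) summed to 1277 to 1439 in castrated and 558 to 623 in sham caput, and ciliated cell markers (2 of 6 higher) to 744 to 928 and 386 to 452. The part of these cells in the Emx2 difference was not tested. The castration differences of the 2 tissues were set against each other, and none of the 15 probe sets passed that test (2 at an unadjusted p under 0.05), where 1.08% of all were called.

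Androgen was set against estradiol within each tissue, and in the efferent duct both hormones lie within 1 array set. The arrays of that set still differed. Their log2 actin ratio was 0.91 and 1.93 in TP and 1.31 and 1.15 in E2 efferent ducts. Germ cell markers summed to 1074 and 110 in TP and to 275 and 140 in E2 efferent ducts. In the efferent duct 0 of 15 probe sets passed limma's test between TP and E2 mice (3 at an unadjusted p under 0.05), and 0% of all probe sets were called. Hnf4a had 1032 and 1673 in TP and 427 and 588 in E2 efferent ducts, 2.62-fold higher, a log2 difference of 1.39 with a 95% interval from 0.56 to 2.23 (adjusted p = 0.499). The second Hnf4a probe set had 200.5 and 289 in TP and 61.3 and 67.0 in E2 efferent ducts, 3.76-fold higher, a log2 difference of 1.91 (adjusted p = 0.367). Neither probe set overlapped between the hormones, and both passed when the variance was allowed to follow intensity (adjusted p = 0.0395 and 0.0321). The summed caput principal cell markers were 2239 and 343 on these TP arrays and 114 and 679 on the E2 arrays, and the summed absorptive cell markers were 1097 and 1804 in TP and 1007 and 905 in E2 efferent ducts; their part in the Hnf4a difference was not tested. Emx2 differed by -0.10 between TP and E2 efferent ducts, with an interval from -0.67 to 0.46.

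In the caput 0 of 15 passed between TP and E2 mice (3 at an unadjusted p under 0.05), where 0.258% of all probe sets were called. Emx2 had 969 and 1010.2 in TP and 1510.1 and 1398 in E2 caput, a log2 difference of -0.55 with a 95% interval from -0.92 to -0.19 (adjusted p = 0.211). Pax8 had 671 and 645 in TP and 968 and 989.5 in E2 caput, a log2 difference of -0.57, from -0.95 to -0.20 (adjusted p = 0.206). For both genes each E2 array was above each TP array, and both passed when the variance was allowed to follow intensity (adjusted p = 0.0135 and 0.0125).

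Against castrated vehicle, 0 of 15 passed limma's test in TP caput (1 at an unadjusted p under 0.05), where 0.315% of all probe sets were called, and 0 of 15 in E2 caput (2 at an unadjusted p under 0.05), where 0% were. Hnf4a had 64.1 and 142 in TP caput and 46.0 and 37.3 in castrated caput, a log2 difference of 1.21 with an interval from 0.21 to 2.20 (adjusted p = 0.241), with TP array 2 well above TP array 1. Emx2 was 1.62-fold and Pax8 1.56-fold higher in E2 than in castrated caput (log2 0.70 and 0.64, adjusted p = 0.209 and 0.229), with no overlap. Both passed when the variance was allowed to follow intensity (adjusted p = 0.00771 and 0.0130). The E2 comparisons with TP and with castrated caput share the E2 arrays. Adipocyte markers summed to 408 and 360 in TP, 1357 and 2611 in E2 and 277 and 1928 in castrated caput, with none of 4 passing in these comparisons, and their part in the Emx2 and Pax8 differences was not tested.

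**Figure D4:**
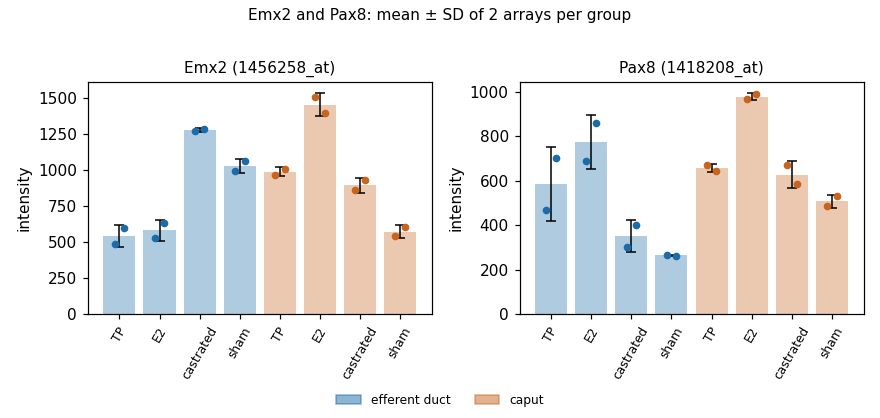
Intensity of Emx2 and Pax8 by group, with the efferent duct (blue) left of the caput (orange). Bars are means of 2 arrays, error bars SDs and points single arrays. Both genes are highest in E2 caput, and Emx2 is lower in TP and E2 efferent ducts than in castrated and sham efferent ducts.

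In the efferent duct, hormone against castrated vehicle crosses the 2 array sets. In TP mice 5 of 15 probe sets were called, where 24.2% of all were. Emx2 was 2.36-fold lower in TP than in castrated efferent ducts (log2 -1.24 ± 0.23 SE, adjusted p = 0.0194) and the second Hnf4a probe set 3.10-fold higher (adjusted p = 0.0303). The probe set 1421983_s_at was also higher (adjusted p = 0.0361), with 75.8 and 70.2 in TP and 2.05 and 14.1 in castrated efferent ducts, where castrated array 1 was not above background. With values under 16 set to 16 its log2 difference was 2.19 (adjusted p = 0.00746). The dim Hoxa9 probe set was at least 1.28-fold higher (adjusted p = 0.0495), and Hoxa11 passed (adjusted p = 0.0443) with both castrated arrays below background and no fold. The brightest Hnf4a probe set went the other way, with a log2 difference of -0.94 (adjusted p = 0.0938), which was -0.07 after quantile normalization. The count fell to between 0 and 2 with 1 of the 4 arrays left out: 0 without TP array 1, 1 without TP array 2, 1 without castrated array 1 and 2 without castrated array 2.

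In E2 mice 2 of 15 probe sets were called against castrated efferent ducts, where 18.2% of all were. The brightest Hnf4a probe set had 427 and 588 in E2 and 2221 and 2876 in castrated efferent ducts. It was 5.05-fold lower with E2 (limma, log2 -2.34 ± 0.33 SE, adjusted p = 0.0170). None of the other Hnf4a probe sets passed. On the log2 scale the second differed by -0.28 and the fourth, near background, by -1.74. The third was higher with E2, by 2.05, with castrated array 1 below background. Emx2 was 2.20-fold lower (log2 -1.14 ± 0.23 SE, adjusted p = 0.0280). Pax8 was 2.21-fold higher without passing (adjusted p = 0.0544), and Lhx1 2.25-fold lower without passing (adjusted p = 0.0729). The dimmer Lhx1 probe set (1421951_at) went the other way, with 40.5 and 44.7 in E2 and 28.6 and 19.0 in castrated efferent ducts (log2 0.87). Without the dimmest 40% of probe sets, both Lhx1 probe sets passed limma's test in opposite directions (adjusted p = 0.0226 for the bright, 0.0419 for the dimmer). After quantile normalization the brightest Hnf4a probe set differed by -1.89 (adjusted p = 0.0313) and Emx2 by -0.84 (adjusted p = 0.0697). Neither called gene passed with any 1 of the 4 arrays left out, with an adjusted p of 0.0503 to 0.110 for Hnf4a and of 0.0774 to 0.149 for Emx2. Cell markers moved with both hormone comparisons. Endothelial markers (3 of 4 higher with each hormone) summed to 608 to 610 in TP, 459 to 753 in E2 and 135 to 187 in castrated efferent ducts. The Leydig and Sertoli cell markers, of which Sox9 alone passed (lower with each hormone), summed to 659 to 782 in TP, 491 to 551 in E2 and 2766 to 2918 in castrated efferent ducts. Their part in the Hnf4a and Emx2 differences was not tested.

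The hormone differences of the 2 tissues were also set against each other, in tests added after the data were seen. For E2 against castrated mice, the brightest Hnf4a probe set and Emx2 were the 2 of 15 probe sets that passed, where 17.0% of all were called. The efferent duct difference minus the same difference in the caput was -2.76 for that Hnf4a probe set and -1.84 for Emx2 on the log2 scale (limma, adjusted p = 0.00835 and 0.00260). The other Hnf4a probe sets did not pass. For TP against castrated mice 4 of 15 passed, where 22.6% of all did. For TP against E2, 0 of 15 passed by limma (1 at an unadjusted p under 0.05), and 0% of all.

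**Figure D5:**
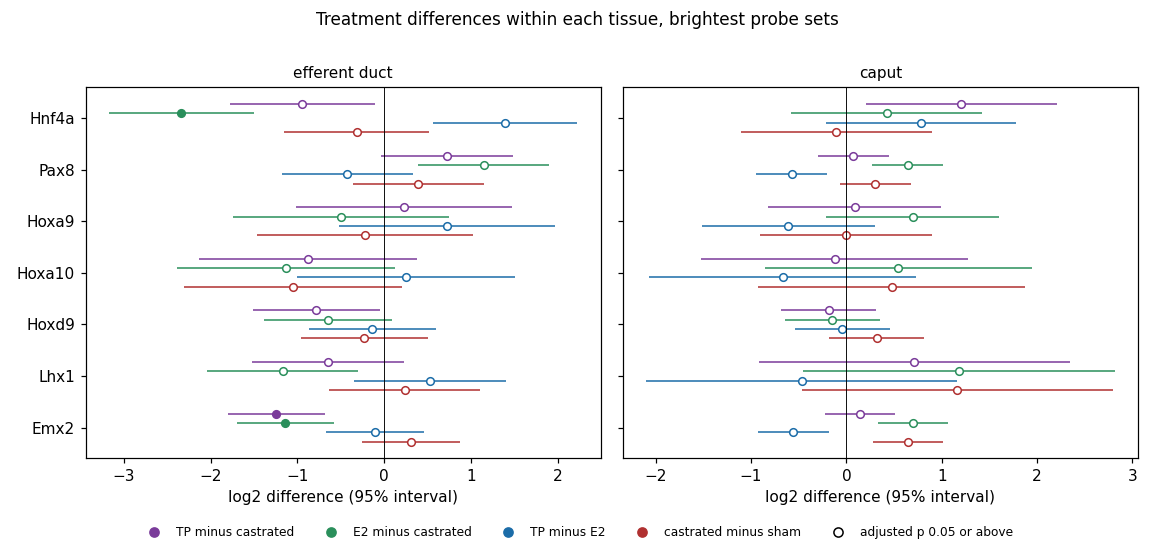
Log2 differences between treatments within the efferent duct (left) and the caput (right) for the brightest probe set of 7 genes, with 95% intervals from limma. Filled markers passed the adjusted p threshold of 0.05 and open ones did not. The filled markers are Emx2 (TP and E2 minus castrated) and Hnf4a (E2 minus castrated) in the efferent duct, both across its 2 array sets. Hoxa11 is left out because it was below background in several groups.

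The genes around these factors were read from 6 lists, by the brightest probe set of each gene, in sham efferent duct against sham caput. Of 19 measured other regulators of nephric and Wolffian duct formation, 10 were higher, 6 lower and 3 did not pass, with a median log2 difference of 2.31 against -0.30 over all genes. Sall1, a zinc-finger factor of the kidney and its duct, had 1125 and 1100.0 in sham efferent ducts and 17.5 and 21.6 in sham caput, 57.1-fold higher. Nr2f2, the nuclear receptor COUP-TFII, was 15.3-fold and Foxc2, a forkhead factor, at least 7.39-fold higher. Gfra1, the co-receptor for GDNF, went the other way, with 88.3 and 98.5 in sham efferent ducts and 1565 and 1630 in sham caput, 17.1-fold lower. These lists were chosen with earlier results of these data known, and their counts stand beside the 19.0% of all probe sets that were higher and the 28.8% that were lower. The list counts are over genes by their brightest probe set, while these shares include every dimmer probe set, so they are not like for like.

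Other Hox genes were split between the tissues. Of 10 measured other posterior Hox genes, 4 were higher, 0 lower and 6 did not pass. Hoxd10 had 128 and 197 in sham efferent ducts and 38.5 and 33.1 in sham caput (4.45-fold), and Hoxb9 had 265 and 244 in sham efferent ducts and 94.6 and 91.0 in sham caput (2.74-fold), while Hoxd12 and Hoxc13 were at or near background. Of 19 measured anterior and central Hox genes, 8 were higher, 3 lower and 8 did not pass. Hoxa3 (7.34-fold) and Hoxc4 (6.93-fold) were higher in the efferent duct, and Hoxb2 (23.9-fold) and Hoxb6 (7.50-fold) lower. Of 8 Hox cofactors, which bind DNA together with HOX proteins, 3 were higher, 2 lower and 3 did not pass, with Meis2 4.02-fold higher and Pknox1 5.59-fold lower.

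Close relatives of the factors were dim. Of 16 measured paralogues of Hnf4a, Pax2, Pax8, Lhx1 and Emx2, 2 were higher (Pax4, at least 1.40-fold, and Pax9, at least 2.80-fold), 2 lower (Lhx6 and Pax5, at least 1.23-fold for Pax5) and 12 did not pass. Hnf4g, the paralogue of Hnf4a, was above background on 4 of 16 arrays, and Emx1, the paralogue of Emx2, lay between 4.80 and 27.5.

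Absorptive genes of the efferent duct and of proximal tubule epithelium were higher in the efferent duct in part. Of 15 measured, 5 were higher, 1 lower and 9 did not pass in sham mice. Vil1, the microvillus protein villin, was 22.8-fold higher, Slc9a3, the apical sodium-proton exchanger, 17.5-fold, and Lrp2, the endocytic receptor megalin, 15.0-fold. Lrp2 had 298 and 588 in TP, 313 and 381 in E2, 299 and 418 in castrated and 1205 and 1024 in sham efferent ducts, so that both sham arrays lay above all others. Slc9a3 had 195 and 444 in TP, 25.1 and 26.9 in E2, 19.1 and 81.3 in castrated and 507 and 513 in sham efferent ducts. No gene of this list passed between castrated and sham efferent ducts.

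In the caput, some genes of these lists changed after castration. Fgfr2, a fibroblast growth factor receptor, had 689 and 669 in castrated and 256 and 257 in sham caput (2.65-fold higher, adjusted p = 0.0142). Tcf21, a mesenchymal factor, rose 2.77-fold (adjusted p = 0.0329), and Gfra1 fell 2.42-fold (adjusted p = 0.0203). Among the nephric regulators 4 of 19 genes rose and 1 fell, where 3.24% and 2.58% of all probe sets did, a share over probe sets and not over genes. The cofactor Meis1 rose 2.55-fold (adjusted p = 0.0207) and Hoxb5 1.98-fold (adjusted p = 0.0260), and 0 of 10 other posterior Hox genes passed. In TP or E2 against castrated caput, and in TP against E2 caput, no gene of the 6 lists passed.

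For each factor the genes with the most similar pattern over the 8 group means of log2 intensity were found among 16815 genes, as a description without a test. The points share tissue, labelling kit and array set. For Hnf4a these were Slc6a9 (r = 0.996), Iyd (0.995) and Nmt2 (0.993), and Iyd (0.96) and Slc6a9 (0.93) were also among the first 3 over the 16 arrays after each tissue's mean was taken away. For Pax8 they were Wwp2 (0.98), Rpl12 and Rab7b, and for Hoxa10 Cln6 (0.99), Slc44a3 and Sez6l2. None of these stayed among the first 3 for Pax8 or Hoxa10 after each tissue's mean was taken away, when Inip (0.96) and Mtcl1 (0.87) came first. For Lhx1, Fam183b was among the first 3 both ways (0.998 and 0.92). Between the factors themselves, over the 16 arrays with each tissue's mean taken away, Lhx1 and Emx2 had the highest correlation (r = 0.80) and Pax8 and Hoxd9 the lowest (r = -0.68).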

How the data were processed

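Each of the 16 samples was read on its own one-colour Affymetrix array for mouse, which holds 45101 probe sets, 64 of them controls, and groups were taken from the labels. The deposited values are intensity on a linear scale. RMA is named per the submitters' processing notes, with no version, but the deposited values are not on a log2 scale and each array has a mean of 125.0 after trimming 2% at each end, which RMA does not give, so they were used as linear intensity and log2 was taken. The genome build of the array design and any step before deposit are not given in the sources used here. The platform annotation gives 34958 probe sets 1 symbol, 932 several and 9211 none.

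The tests ran in limma 3.58.1 (R 4.3.3) over 45037 probe sets, with 1 model per tissue (8 arrays, 4 groups) and 1 model over 16 arrays for differences between tissues. Adjusted p-values (Benjamini-Hochberg) span all 45037, and 0.05 was the threshold. A probe set below background on both arrays of a group has only a bound there. A gene is represented by its brightest probe set where 1 value is given. All probe sets of the members were described. In each list and comparison at most 4 genes past the threshold, those with the largest difference, were eligible to be named, and Lrp2, Slc9a3, Hnf4g and Emx1 were shown on further arrays after their values were seen. Likeness is Pearson's r, 3 genes per factor. The members and lists were chosen with earlier results of these data known. The fit was tested on simulated data. Alternatives were quantile normalization, a floor of 16, leaving out the dimmest 40%, an intensity trend, the brightest probe set per gene, only the groups compared, 1 fit of all arrays, a replicate block and leaving out each array. With 2 arrays per group, the number of arrays limits the precision. Python 3.11.15 with pandas 2.3.3 wrote the tables, and matplotlib 3.10.9 drew the plots.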

Additional observations from a re-analysis of the deposited data

Results flagged for a closer look

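Whether a hormone difference itself differed between the tissues was tested over all 16 arrays, in comparisons added after the data were seen. In TP against castrated mice 4 of 15 probe sets passed, where 22.6% of all probe sets were called, and in E2 against castrated mice 2 of 15 passed, where 17.0% were. All cross the 2 array sets of the efferent duct, which cannot be told apart from the hormones.

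The TP effect on Hnf4a (1427001_s_at) was lower in the efferent duct than in the caput by a log2 difference of -2.15 (adjusted p = 0.0182), and did not pass after quantile normalization (-1.37, adjusted p = 0.152). The third Hnf4a probe set (1421983_s_at) went the other way, with 3.34 (adjusted p = 0.0447), a value that rests on efferent duct castrated array 1 at 2.05, below background, and that passed in 4 of 14 other settings (1.79 to 4.74, largest adjusted p = 0.145). Emx2 differed by -1.39 (adjusted p = 0.00421). Hoxa11 differed by 5.90 (adjusted p = 0.0224), a value that rests on arrays below background and is no fold. With values under 16 set to 16 it was 0.14 (adjusted p = 0.842), where all of the arrays compared but caput castrated array 2 lay at the floor.

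The E2 effect was lower in the efferent duct than in the caput by -2.76 for Hnf4a (1427001_s_at, adjusted p = 0.00835) and by -1.84 for Emx2 (adjusted p = 0.00260). Both passed in all 15 other settings run for them. The other Hnf4a probe sets did not pass in the main fit. In TP against E2, which stays within an array set, 0 of 15 passed this test between tissues by limma (1 at an unadjusted p under 0.05), where 0% of all probe sets were called.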

How the results depend on the processing

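Among 52 single values that passed, 683 of 685 other settings kept the direction, 593 of them past the threshold and 90 not, and 0 reversed. In the other 2, Hoxa11 and the dim Hoxa9 probe set for TP against castrated efferent duct, all values lay at the floor of 16 and no difference was left. Only quantile normalization, the floor and leaving out an array can change a log2 difference. The remaining settings keep the group means and so cannot turn a direction. The values were also taken because they passed, so a kept direction is no separate support for them. With only the groups compared in the fit, the number of members called was 5 in castrated mice (8 in the main fit) and 3 in TP mice (6) between tissues, 0 for TP (5) and 0 for E2 (2) against castrated efferent duct, and 1 for the added TP difference between tissues (4). Quantile normalization gave 3, 1 and 2 for these last 3 comparisons. Against castrated efferent duct, TP gave 3 with values under 16 set to 16 and 2 with the brightest probe set per gene, and E2 gave 5 without the dimmest 40%, 5 with an intensity trend and 4 with the brightest per gene. The E2 tissue difference gave 4 (7) without the dimmest 40% and 4 with the brightest per gene. An intensity trend gave 2 (0) for TP against E2 in each tissue and 2 (0) for E2 against castrated caput. Castrated against sham caput gave 1 (0), Emx2, without the dimmest 40%, with the floor, with the trend and with the brightest per gene. Leaving out 1 array gave 0 to 2 for TP and 0 to 1 for E2 against castrated efferent duct, and 2 to 3 for the added TP difference, with 2 without caput castrated array 2, efferent duct TP array 1 or efferent duct TP array 2. A group left with 1 array is assumed to vary like the others. The labels' replicate numbers were not taken as pairs in the main fit. Between the tissues, deviations of same-numbered arrays from their group means correlated at -0.0049 (castrated) to 0.099 (TP). With 2 arrays per group and a different labelling kit in each tissue, these values can neither show nor exclude pairing. With the replicate block, 2 members were called for TP and 1 for E2 against castrated efferent duct and 2 for the added TP difference, and the block moved no other count by more than 1.5 times. The cause of these changes was not tested. Some probe sets were below background on both arrays of at least 1 group and give only a bound there. These are Hoxa11, the fourth Hnf4a probe set, the dim Hoxa9 and Hoxa10 probe sets and both Lhx1 probe sets.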

Other observations

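Antisense transcripts of 3 of the genes have probe sets of their own, chosen here after the data were seen, and without strand information in the annotation they are given as levels only. Over the mean of the 4 treatments Hnf4aos was higher in the efferent duct than in the caput (log2 0.65, adjusted p = 0.0289), and in TP mice the difference was 1.59 (adjusted p = 0.0209). In sham mice, where Hnf4a differed by 6.14, Hnf4aos differed by 0.47 (adjusted p = 0.436), and in castrated mice by -0.15 (adjusted p = 0.815). Over the mean of the 4 treatments Emx2os was higher in the efferent duct (log2 0.51, adjusted p = 0.0463), and differed by 1.04 in TP mice (adjusted p = 0.0670), where Emx2 was lower by a log2 difference of -0.87. In sham mice Emx2os was higher by 0.91 (limma, adjusted p = 0.0915), where Emx2 was higher by 0.85. In E2 mice Emx2os differed by 0.48 (adjusted p = 0.377), where Emx2 differed by -1.32. In castrated mice Emx2os differed by -0.38 (adjusted p = 0.468), where Emx2 differed by 0.51. Hoxa11os passed in no single treatment between tissues.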
